A study of Mus musculus with 4 samples.

Results

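The Lrrtm genes (Lrrtm1 to Lrrtm4) and the Slitrk genes (Slitrk1 to Slitrk6) encode leucine-rich repeat adhesion proteins of the synapse. They were chosen by name, as 2 of several gene families of this kind with a long coding exon, and they make up 10 of the 21511 protein-coding genes with a representative transcript in GENCODE M21. The measurement was m6A-seq, in which fragmented mRNA is pulled down with an antibody against N6-methyladenosine (m6A) and sequenced beside RNA that did not pass the antibody (input). The 4 samples came from whole brain of mice 4 weeks old, with the strain given as C57BL/6J and the genotype as Prrc2a flox/flox, and no Cre driver or deletion was named for them. They fell into 2 immunoprecipitation (IP) samples, each with its own list of m6A peaks, and 2 inputs, which entered only through the fold enrichment of each peak, a linear ratio of IP over input.

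LRRTM proteins sit in the postsynaptic membrane of excitatory synapses and bind presynaptic neurexins or heparan sulphate proteoglycans, and SLITRK proteins bind presynaptic receptor tyrosine phosphatases such as PTPσ and PTPδ. Both are single-pass membrane proteins with extracellular leucine-rich repeats, closed at their ends by cysteine-rich caps, a transmembrane segment and a cytoplasmic tail. m6A is the most abundant internal mark of mRNA, is written on adenosines in contexts such as GGAC, and is known to concentrate near stop codons and in long internal exons, where it is read by proteins that affect the splicing, translation and decay of the transcript.

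The label of a long coding exon was checked against the annotation. In Lrrtm1, Slitrk1, Slitrk2, Slitrk3, Slitrk4, Slitrk5 and Slitrk6 the whole coding sequence (CDS) before the stop codon lay in 1 exon, and in Lrrtm2 it reached 99.7%. Lrrtm3 and Lrrtm4 departed from it: exon 2 of 3 held 87.9% and 87.3% of the CDS, and the end of the cytoplasmic tail, the stop codon and the 3′ UTR lay in exon 3. The long exon held between 1535 and 2940 coding nt (median 2299.5). The lists hold no expression levels, so markers of brain cells could not be looked at, and a gene without a peak may be unmethylated or simply not expressed.

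All 10 genes carried m6A peaks, and all 10 had an exonic peak that overlapped a peak of the other replicate (a shared peak). The same was true of 44.8% of all protein-coding genes and of 64% of the 2896 genes with at least 1000 coding nt in 1 exon (long-exon genes). A shared interval, meaning the bases common to a peak of each replicate, lay within 200 nt of the stop codon in all 10 genes, against 31.9% of all genes, 46.2% of long-exon genes and 72.3% of the 1852 long-exon genes that had a shared peak. In 9 of the 10 genes shared intervals held at least 50% of the coding bases of the long exon. That share was 18.5% over all genes, 35.3% over long-exon genes and 55.1% over long-exon genes with a shared peak. There were 31 shared intervals in all, from 1 in Lrrtm1 to 5 in Slitrk5 (median 3), and 7 of the 10 genes had 3 or more, while 49.4% of long-exon genes with a shared peak did. With midpoints of both peaks required to lie within 100 bp, 14 intervals and 6 genes with one at the stop codon were left. These are descriptions of 2 peak lists without read counts, so no test was made and the sequencing depth behind each peak is unknown.

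**Figure D1:**
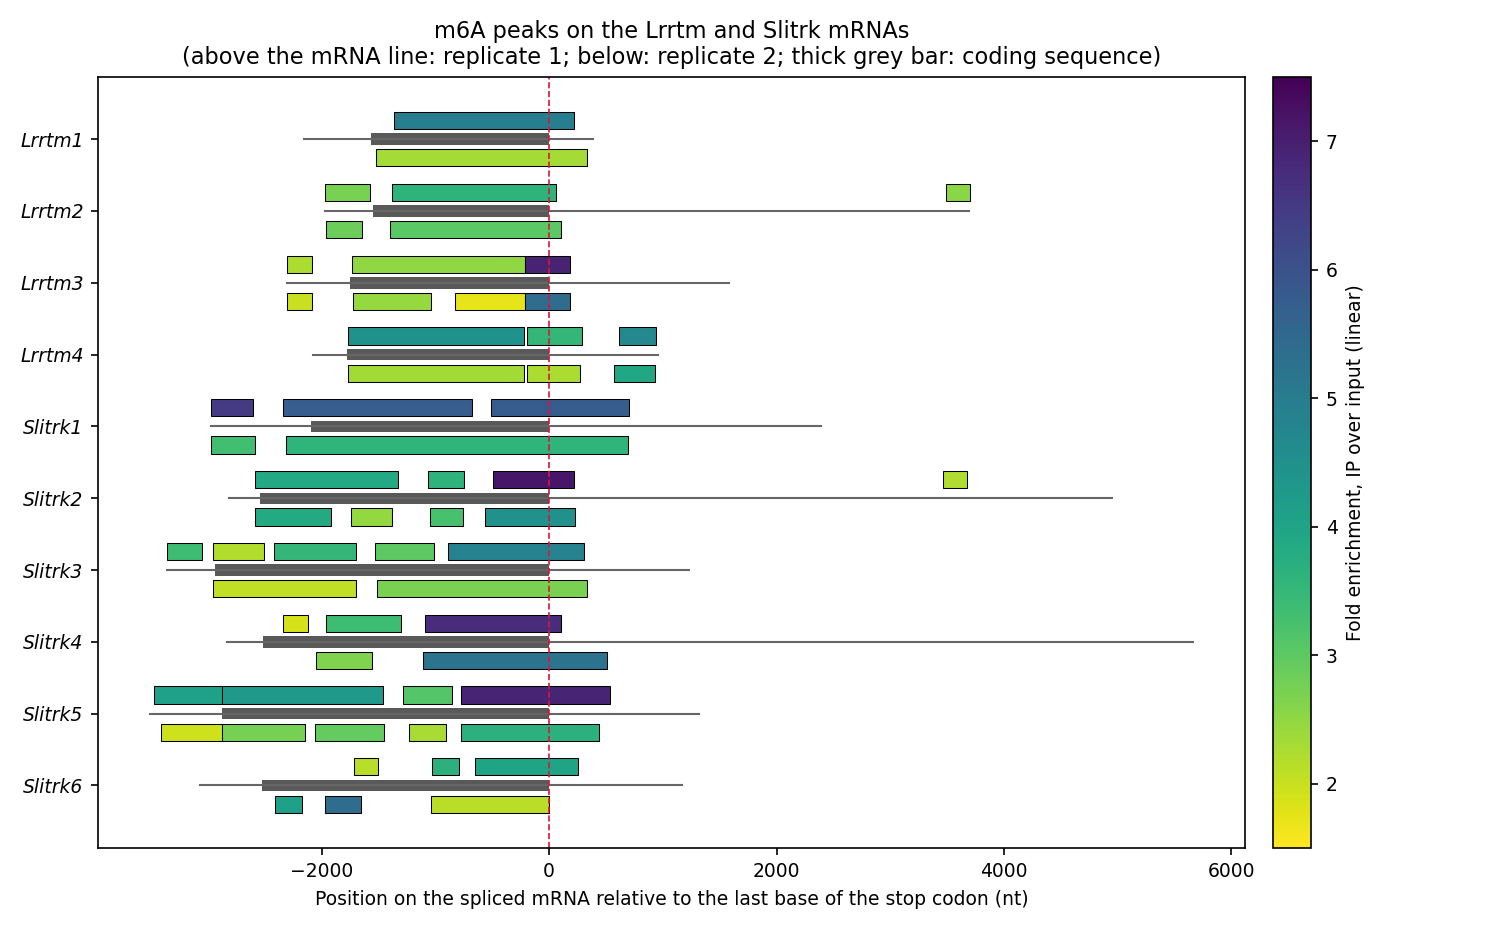
m6A peaks of replicate 1 (above each mRNA line) and replicate 2 (below) on the spliced mRNAs of the 10 genes, by distance in nt from the last base of the stop codon (dashed line), coloured by linear fold enrichment. Peaks of both replicates cover most of the coding sequence (thick grey bar) in the genes other than Slitrk6, and reach or end at the stop codon in every gene, while most of the long 3′ UTRs of Lrrtm2, Slitrk2 and Slitrk4 carry none.

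The intervals over the stop codon were broader and stronger than the rest by their medians. They numbered 9, 1 in each gene but Slitrk6, with a median length of 1198 nt (454 to 1586) against 473 nt for the other 22 intervals. Their fold enrichment had a median of 5.77 in replicate 1 (3.54 to 7.15) and 3.60 in replicate 2 (2.27 to 5.40). The other 22 intervals had medians of 3.65 in replicate 1 (2.14 to 6.46) and 2.56 in replicate 2 (1.73 to 5.37), so the medians were ordered alike in both replicates while the ranges overlapped. An interval picked for spanning a given point is more likely to be long, so the difference in length is partly set by this choice. Each fold enrichment is that of a whole peak, so 2 intervals can share one, as with 3.60 in replicate 2 of Slitrk1. The comparison was not made over other genes. The strongest peak of a gene touched the window of 200 nt around the stop codon in 8 genes in replicate 1, all but Lrrtm4 and Slitrk1. It did so in 8 genes in replicate 2 as well, there all but Lrrtm4 and Slitrk6. These peaks were up to 3009 nt long (Slitrk1 in replicate 2), and the same count over other genes was not made.

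Of these 9 intervals 8 held at least 1 GGACT, the most favoured letters of the m6A context, on the mRNA strand. Such a count rises with length (here a median of 1198 nt, with 1.63 GGACT per kb in the CDS of the 10 genes). It was not made over other genes. For 7 of the 8 intervals the site nearest to the stop codon within the interval is printed, to show where such a context lies. Each is given as 21 nt of the mRNA from 5′ to 3′ (GRCm38, which is mm10), with GGACT in capitals.
Lrrtm1: gggcaccaGGACTggtctcct
Lrrtm3: actgagctGGACTtgagcaca
Slitrk1: tggtcccgGGACTgctgctgg
Slitrk2: tttatatgGGACTcccagaaa
Slitrk3: ggatttgtGGACTgtctctat
Slitrk4: aaaaagatGGACTgagcacag
Slitrk5: gttgagccGGACTacctcgaa
The Lrrtm1 site was in the 3′ UTR, 73 nt after the stop codon, with its A at position 77245203 of chromosome 6 (plus strand). In the eighth, of Lrrtm2, the nearest site was coding, at -802 nt from the end of the stop codon. The other 6 printed sites were coding. Counted from the last base of the stop codon, their A lay at -46 nt in Slitrk5 (chromosome 14, 111681773, plus), -58 nt in Lrrtm3 (chromosome 10, 63930116, minus), -122 nt in Slitrk2 (chromosome X, 66656323, plus), -222 nt in Slitrk1 (chromosome 14, 108911409, minus), -232 nt in Slitrk3 (chromosome 3, 73048727, minus) and -474 nt in Slitrk4 (chromosome X, 64271020, minus). The stop-codon interval of Lrrtm4 held no GGACT, nor did the interval of Slitrk6 that ended just before its stop codon. A match of these letters is a description of the sequence, and peaks of this width do not show which adenosine was methylated.

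Lrrtm3, a neurexin-binding member, had the shortest of the stop-codon intervals and one of the strongest. Its stop-codon peak ran over chr10:63929872-63930331 in replicate 1 and chr10:63929873-63930326 in replicate 2, with fold enrichment of 6.92 and 5.40. The boundaries thus differed by no more than 5 nt on either side, and the peak ranked 2nd and 1st among the strongest peaks of the 10 genes. It lay in exon 3, apart from the long exon, and the site actgagctGGACTtgagcaca printed above is the only GGACT in the coding sequence of Lrrtm3. On the mRNA the stop-codon interval began at nt 2101, right after an interval of exon 2 that ended at nt 2100. The 2 were thus parted only by the intron, and 395 of the 454 nt of the stop-codon interval were exonic. The long exon of the same gene carried weaker peaks: 1 of 1643 nt in replicate 1 (2.49), met in replicate 2 by 2 peaks of 692 nt (2.44) and 677 nt (1.73). A peak at the start of the 5′ UTR had 2.24 and 2.00.

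Lrrtm4, which binds glypicans, repeated the split between exons 2 and 3. A peak filled its long exon 2 in both replicates (4.46 in replicate 1 and 2.34 in replicate 2). A second peak, over the stop codon in exon 3, had 3.54 and 2.27. Its strongest peak lay further on, in the 3′ UTR, 615 to 931 nt after the stop codon by the shared interval, with 4.67 and 3.92, and no other gene of the 2 families had a shared interval wholly in the 3′ UTR. A shorter annotated protein of Lrrtm4 (518 residues instead of 591) ends at a stop codon in a longer form of exon 2, chr6:80023164-80023166, and the exon 2 peak of both replicates reached over that stop codon too. The only GGACT in the mRNA, tactacgtGGACTacaaaccg with its A at 80023069 of chromosome 6, lay under the exon 2 peak. That peak overlapped exons of Gm4409 on the other strand, and peaks carry no strand.

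Lrrtm1 and Lrrtm2, the other members of the family, had 1 long peak each over the CDS in both replicates, from its early part to beyond the stop codon. In Lrrtm1 a single peak of 1586 nt reached 4.95 in replicate 1 and a single peak of 1863 nt reached 2.30 in replicate 2, the largest ratio between replicates among the strongest peaks of the 10 genes in representative exons (2.15). A second shared peak of Lrrtm1, over an exon of another annotated transcript, was higher and nearly equal in the replicates (5.19 and 5.12). In Lrrtm2 the peaks had 3.63 over 1443 nt and 3.03 over 1503 nt. Lrrtm2 also had a shared 5′ UTR peak (2.73 and 2.85), which overlapped exons of Ctnna1 on the opposite strand, and a peak at its 3′ end in replicate 1 alone.

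The coding exon of most Slitrk genes carried several separate peaks, though Slitrk1 and Slitrk3 were read as 1 or 2 long peaks in replicate 2. Slitrk2, on chromosome X, had the highest fold enrichment of the 10 genes in replicate 1: its stop-codon peak had 7.15 over chrX:66655951-66656661 and 4.496 in replicate 2 over chrX:66655877-66656667. Before it lay 3 more shared intervals, of which the one over the start codon had 3.89 and 3.84. The 3.89 is the value of a replicate 1 peak of 1259 nt, which also met a second replicate 2 peak, of 2.47. Slitrk4, also on chromosome X, had 6.73 and 5.21 over its stop codon and 3.38 and 2.65 further upstream. These genes had fold enrichments over 4 at the stop codon in both replicates, as did Lrrtm3.

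Slitrk5 had 5 shared intervals, the most of the 10 genes, including a separate one in its first exon (4.12 in replicate 1 and 1.97 in replicate 2). Its stop-codon interval had 6.91 and 3.66. Slitrk3, with the longest protein at 980 residues, had 4 shared intervals and moderate values, 4.86 and 2.70 at the stop codon and 2.19 and 2.08 at the start codon. In replicate 2 this gene was read as 2 long peaks of 1260 and 1843 nt where replicate 1 had 4 shorter ones, so its number of intervals follows replicate 1. Slitrk1, a single-exon gene studied in Tourette syndrome, was the extreme of this: replicate 2 gave 1 peak of 3009 nt, chr14:108910496-108913504, from the 5′ UTR through the start and stop codons into the 3′ UTR. Replicate 1 had 2 peaks there, 5.76 over the first part and 5.77 over the second, while the single peak of replicate 2 had 3.60. The strongest peak of Slitrk1 in replicate 1 was at the very start of its 5′ UTR (6.46), and its partner in replicate 2 had 3.32.

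Slitrk6 stood apart from the other 9 genes. Only 37.4% of the coding bases of its long exon were under shared intervals, the only value below 50%. Its highest peak in replicate 2, 5.37 over chr14:110751407-110751724 in the first part of the CDS, shared 61 nt with a replicate 1 peak of 2.14. A second replicate 2 peak nearer to the start codon, of 4.12, had no partner. Its order of peaks was therefore reversed between replicates, with 4.00 at the stop codon in replicate 1 and 2.12 in the peak that ended 4 nt before the last base of the stop codon in replicate 2. It was the only gene whose strongest peak was lower in replicate 1 (ratio 0.745).

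Over the 10 genes the strongest peak in representative exons had a median fold enrichment of 5.71 in replicate 1 (3.63 to 7.15) and 3.79 in replicate 2 (2.30 to 5.40). As percentiles of all peaks of the same list, Lrrtm3, Slitrk2 and Slitrk4 were at 97.8 to 98.6 in replicate 1 and at 97.8 to 99.4 in replicate 2. Slitrk5 and Slitrk1 were at 98.2 and 97.2 in replicate 1 and at 92.0 and 91.4 in replicate 2. Below these, the order changed with the replicate: Lrrtm4 was at 86.3 and 94.6, Slitrk6 at 76.6 and 99.4, Lrrtm2 at 69.1 and 80.8, Slitrk3 at 88.1 and 71.4, and Lrrtm1 at 89.0 and 54.8, which leaves out its peak over another transcript. Each percentile sets the highest of a gene's peaks among single peaks, which favours high values. The strongest peaks of other genes were not ranked in this way. With 1 value a replicate, the neighbours among Lrrtm3, Slitrk2 and Slitrk4 cannot be ranked, nor can the last 5. Values were higher in replicate 1 in 29 of the 31 intervals (93.5%), against 78.2% of the 21239 shared intervals in exons of all protein-coding genes. The 2 lists have their own inputs, so this offset between them is given as a difference between lists, whose source was not tested.

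**Figure D2:**
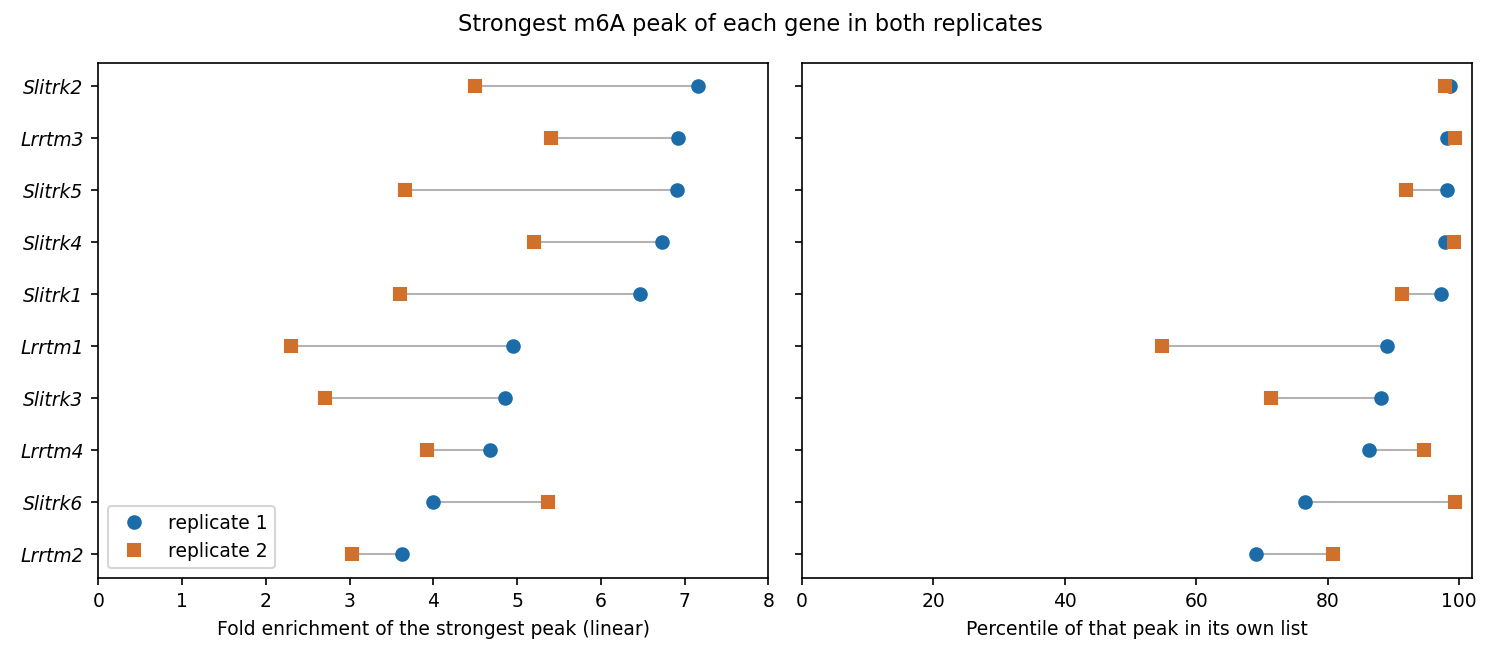
Linear fold enrichment of the strongest peak of each gene (left) and the percentile of that peak among all peaks of its list (right) in replicate 1 (circles) and replicate 2 (squares), ordered by replicate 1. In 9 of 10 genes the replicate 1 value is the higher one, and Lrrtm3, Slitrk2 and Slitrk4 are above the 97th percentile in both lists.

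Most peaks were found in both lists. Replicate 1 had 32 peaks in exons of the 10 genes, of which 28 overlapped a replicate 2 peak (87.5%, 95% Wilson interval 71.9 to 95.03, which covers counting error only), against 68.9% of the 29985 exonic peaks of all protein-coding genes. Replicate 2 had 28 peaks, of which 27 were shared (96.4%, 82.3 to 99.4), against 76.8% of 26908. Their median length was 584.5 nt in replicate 1 and 649 nt in replicate 2, while exonic peaks of all genes had medians of 361 and 346 nt, and the part of peak length in these shares was not tested. Besides the Slitrk6 peak, the 4 unshared ones were all of replicate 1: a 3′ end peak of Lrrtm2 (2.55), a 3′ UTR peak of Slitrk2 (2.22), a 5′ UTR peak of Slitrk3 (3.36) and a CDS peak of Slitrk4 (1.89).

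Within the long exon, shared intervals held 77.0% of the 21657 coding bases of the 10 genes (83.0% under replicate 1 peaks and 83.5% under replicate 2 peaks). This rests on counting any overlap as shared: with peak midpoints required to lie within 100 bp it was 28.5%. The share was 90.5% for the 4 Lrrtm genes, from 85.5% to 100%, and 71.6% for the 6 Slitrk genes, from 37.4% to 92.0%. Lrrtm4 was the gene at 100%. The median over the 10 genes was 85.8%, and over the 1852 long-exon genes with a shared peak it was 54.9%, with quartiles at 28.0% and 77.2%. Peaks were thus broad over the coding exon in both families, and more so in the shorter Lrrtm exons.

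Coverage was not even along the CDS, which was cut into 10 equal bins from the start codon to the stop codon. The mean over the 10 genes was 58.5% in bin 1, 89.1% in bin 4, 58.8% in bin 5, 90.6% in bin 7, 97.9% in bin 9 and 99.8% in bin 10. Long-exon genes with a shared peak rose from 25.1% in bin 1 to 52.4% in bin 10, with 42.4% in bin 5 and no drop there. The bins span the whole CDS, which in the long-exon genes can include shorter exons, and the part of this in the difference was not tested. The dip in bin 5 was mostly one of replicate 2, whose peaks covered 59.3% of it. Replicate 1 peaks covered 79.1%, near their 78.5% in bin 2 and 77.8% in bin 8. In bin 6 the means were 71.1% in replicate 1 and 67.1% in replicate 2. By shared intervals the dip was carried by some genes. Bin 5 was uncovered in Slitrk4 and Slitrk6, and coverage there was 7.43% in Lrrtm3, 35.4% in Slitrk3 and 54.3% in Slitrk2. In bin 6 it was 7.14% in Slitrk6, 14.2% in Slitrk2, 29.3% in Slitrk5, 34.7% in Slitrk4 and 74.3% in Lrrtm3. Lrrtm1, Lrrtm2, Lrrtm4 and Slitrk1 were wholly covered in both bins. By single replicates, bin 5 of Lrrtm3 was 100% covered in replicate 1 and 7.43% in replicate 2. For Slitrk4 these values were 79.8% and 0%.

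The 10 genes had 22 coding stretches outside the shared intervals, of which 16 were at least 100 nt long. In Lrrtm1, Lrrtm2, Slitrk4 and Slitrk6 the longest one began at the start codon and ran over 203, 167, 554 and 806 nt. In Slitrk1, Slitrk2, Slitrk3 and Slitrk5 the coding sequence was covered from the start codon on. The longest gap lay in the middle in Slitrk2, Slitrk3 and Slitrk5, over codons 385 to 496, 415 to 478 and 471 to 547. In Slitrk1 it came later, over codons 472 to 527 of a protein of 696 residues. Slitrk4 and Slitrk6 had a second long gap nearer the middle, over codons 319 to 474 and 290 to 499. Lrrtm3 had its longest gap at codons 238 to 307, and Lrrtm4 had none over 28 nt. A further gap lay late in the CDS of 4 Slitrk genes, over codons 594 to 682 in Slitrk2, 643 to 685 in Slitrk3, 657 to 700 in Slitrk5 and 577 to 624 in Slitrk6. The stretches differ between the replicates, and several were covered in 1 of them. The Slitrk1 gap was inside the single replicate 2 peak, and the Lrrtm3 gap inside the replicate 1 peak of 1643 nt. In Lrrtm1 replicate 2 covered 79.5% of the first 200 coding nt. In Slitrk6 it covered 55.2%, 38.5% and 82.1% of bins 1 to 3, where replicate 1 covered 0%. In Slitrk4 replicate 1 covered 31.5% and 54.6% of bins 1 and 2, and replicate 2 covered 0% and 17.5%.

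**Figure D3:**
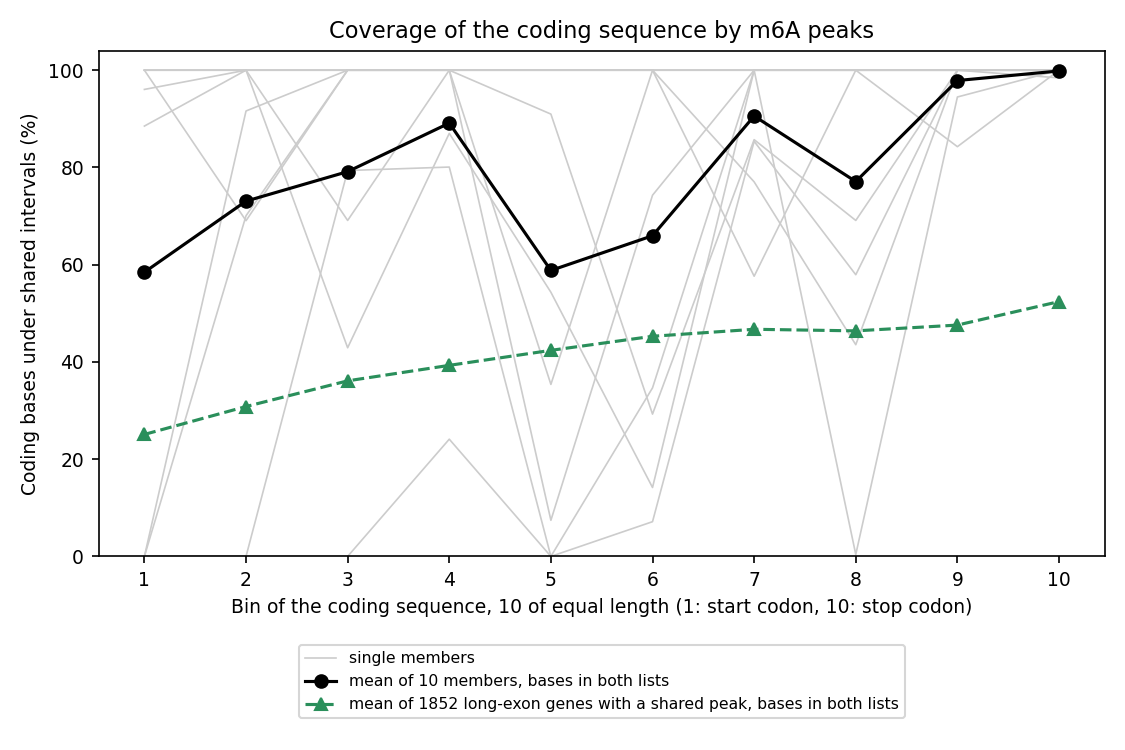
Share of coding bases under shared intervals in 10 equal bins of the coding sequence, from the start codon (bin 1) to the stop codon (bin 10), for single genes (thin lines), the mean of the 10 genes (circles) and the mean of 1852 long-exon genes with a shared peak (triangles). The mean of the 10 genes lies above that of the long-exon genes in every bin and reaches 99.8% in bin 10. The coding sequence of the long-exon genes can include shorter exons.

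The coding end was the part that all 10 genes had in common. The last 200 nt of the CDS were 99.5% covered by shared intervals, in 8 genes completely and in none below 97%. The first 200 nt of the CDS were 60.3% covered, completely in 4 Slitrk genes and not at all in Lrrtm1, Slitrk4 and Slitrk6. There, replicate 2 alone covered 79.5% in Lrrtm1 and 43.5% in Slitrk6, and replicate 1 alone 14% in Slitrk4. To place the coverage on the protein, the transmembrane segment was taken as the most hydrophobic stretch of 19 residues after residue 60. It left tails of 75 to 147 residues in the Lrrtm proteins and 54 to 308 in the Slitrk proteins. The sequence coding for these tails was 95.7% covered (81.7% in Slitrk2 to 100% in 5 genes). The coding sequence before the hydrophobic stretch, for the ectodomain, was 72.0% covered, from 16.0% in Slitrk6 to 99.5% in Lrrtm4. By position the tail sequence is the coding sequence next to the stop codon, so it overlaps the last 200 nt of the CDS. The shares of the last and first 200 nt, tails and ectodomains were not counted over other genes.

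The untranslated regions differed by side. The first 200 nt of the 3′ UTR were 77.6% covered, completely in 6 genes and not at all in Slitrk6. After these 200 nt the coverage was 5.90% of 21343 nt, and 6 genes had any. Lrrtm4 had 51.9%, Slitrk1 22.5% and Slitrk5 21.4%, while Slitrk4, with the longest 3′ UTR of the 10 (5661 nt), and Lrrtm2 (3697 nt) had none. In the 5′ UTR 35.1% of the bases were covered. It was covered most in Slitrk5 (85.0%), Lrrtm2 (74.8%) and Slitrk1 (67.7%), and not at all in Lrrtm1, Lrrtm4, Slitrk4 and Slitrk6. The intervals of Slitrk1, Slitrk2, Slitrk3 and Slitrk5 reached over the start codon, and no Lrrtm gene had an interval there. These counts of genes were not made over other genes.

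**Figure D4:**
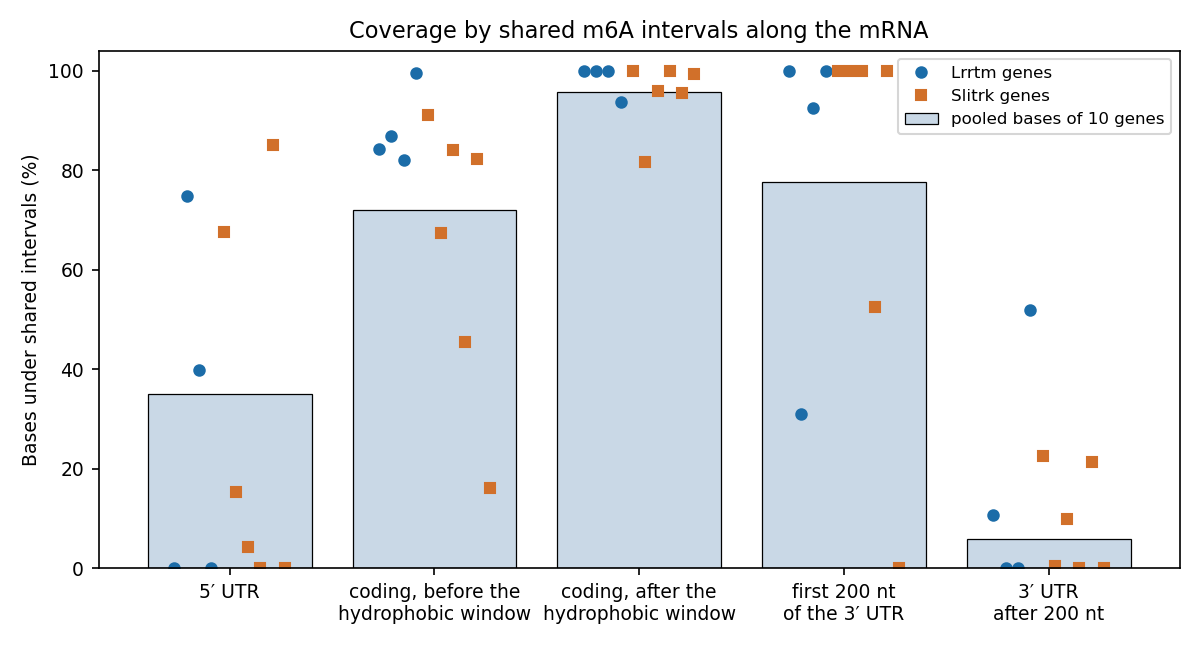
Share of bases under shared intervals in parts of the mRNA, pooled over the 10 genes (bars, from 0) and for each Lrrtm gene (circles) and Slitrk gene (squares). The coding sequence after the hydrophobic stretch is at 81.7% or more in every gene, whereas the 3′ UTR beyond its first 200 nt is at 5.90% in the pool.

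A run of 9 letters recurred under these peaks. It was noticed once the GGACT contexts had been read, so it is a description chosen after its values were seen. TGGGACTGC, in frame, codes for Trp-Asp-Cys of the cysteine-rich cap that follows a set of leucine-rich repeats, and it holds a GGACT. It occurred in 6 of the 10 genes, once in each, and in 61 of the 21511 protein-coding genes (0.284%). Of the other leucine-rich repeat adhesion genes looked at (24, named by family further on) 0 had it. The sites are shown with 6 nt on either side, on the mRNA strand, with the 9 letters in capitals.
Lrrtm1: aacctgTGGGACTGCgggcgc
Slitrk1: aaccctTGGGACTGCacctgt
Slitrk2: aacccaTGGGACTGCacctgt
Slitrk3: aatcctTGGGACTGCacttgc
Slitrk4: aaccctTGGGACTGCacctgc
Slitrk6: aaccccTGGGACTGCtcttgt
They lie at chr6:77244501-77244521 (plus strand) in Lrrtm1, chr14:108912624-108912644 (minus) in Slitrk1, chrX:66655492-66655512 (plus) in Slitrk2, chr3:73049731-73049751 (minus) in Slitrk3, chrX:64271449-64271469 (minus) in Slitrk4 and chr14:110750708-110750728 (minus) in Slitrk6. The Asp is residue 317 of Lrrtm1 and residue 215 of Slitrk1. In Slitrk2, Slitrk3, Slitrk4 and Slitrk6 it is residue 533, 566, 534 and 519, after the second set of repeats. All 6 sites were under shared intervals, in genes whose coding bases are mostly under such intervals anyway. In Slitrk6, where they are not, the site lay in an interval of 234 nt (3.67 in replicate 1 and 2.12 in replicate 2) and was the only 1 of 4 coding GGACT of that gene under a shared interval. This rests on replicate 1. The replicate 2 peak over the site was 1032 nt long, and replicate 2 peaks also covered the GGACT at positions 258 and 1836 of the CDS. In Slitrk2 the 9 letters lay in an interval of 291 nt (3.63 and 3.24) with another pair of GGACT.

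Over the whole mRNAs the 10 genes held 55 GGACT, of which 33 (60%) were under shared intervals that took up 42.9% of the bases. Every gene had at least 1 such site under an interval, and 16 of the 31 intervals held one, counts that were not made over other genes. Most of this followed the coding sequence, where 30 of 36 sites (83.3%) and 77.3% of the bases were covered. Per kb of CDS there were 1.75 GGACT inside the intervals and 1.19 outside, against 1.43 and 0.98 in long-exon genes with a shared peak. The CDS of the 10 genes as a whole held 1.63 per kb, all CDS 1.17. Of the shorter motif GGAC it held 4.203 per kb, fewer than the 4.91 of all CDS. In the 3′ UTRs 2 of 13 GGACT were covered, 1 in Lrrtm1 and 1 in Slitrk1, and in the 5′ UTRs 1 of 6, in Lrrtm3.

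The same layout was found in related genes. Of the 24 other leucine-rich repeat adhesion genes (Flrt, Lrrc4, Lrfn, Elfn, Lingo, Amigo and Lrrn families and Islr2) 23 had a shared peak, 23 had an interval within 200 nt of the stop codon and 21 were at least 50% covered in the long exon. Amigo3 had no peak in either replicate. Their median coverage of the long exon was 86.4%, beside the 85.8% of the Lrrtm and Slitrk genes. Taking the lower of both fold enrichments of the best shared peak, their median was 3.48, that of the Lrrtm and Slitrk genes 3.63 and that of long-exon genes with a shared peak 3.09. The highest of them were Lingo4 (6.49 and 5.71), Lrrc4c (5.89 and 4.47), Lrfn2 (6.21 and 4.22) and Lrrc4b (6.94 and 4.10). By these counts high coverage of the long exon and of the stop codon did not set Lrrtm and Slitrk apart from the other adhesion genes.

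Presynaptic partners differed in gene structure, with no coding stretch of 1000 nt in any of the 6 looked at (Nrxn2, Nrxn3, Ptprd, Ptprf, Ptprs and Gpc4). Of these, 5 had a shared peak (all but Gpc4, a glypican), 3 had one near the stop codon (Nrxn2, Nrxn3 and Ptprd), and 1 was at least 50% covered in its longest coding exon (Nrxn2, 90.8%). At its best shared peak Nrxn2 had 3.12 in replicate 1 and 2.72 in replicate 2, Nrxn3 had 4.61 and 2.79, and Ptprd, which encodes PTPδ, had 3.15 and 4.37.

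Lrrtm1, Lrrtm2 and Lrrtm3 lie inside the catenin genes Ctnna2, Ctnna1 and Ctnna3, on the other strand. In the exons of the representative catenin transcripts the best shared peak had 1.84 and 2.11 in Ctnna1 and 1.82 and 2.13 in Ctnna2, and Ctnna3 had no peak in either list. The Lrrtm2 5′ UTR peak, which overlaps exons of other Ctnna1 transcripts, was higher and could belong to either gene. Besides that peak, no peak of these 3 Lrrtm genes overlapped an exon of another gene.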

How the data were processed

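m6A-seq of whole mouse brain was analysed from the peak lists of 2 IP replicates; the 2 inputs had no list of their own. According to the methods and processing notes, the authors aligned trimmed reads to mm10 with TopHat, kept uniquely mapped reads and called peaks with MACS2, each IP replicate against its own input, without a fragment model, keeping duplicates and filtering on the false discovery rate. The deposited fold enrichment is a linear ratio of IP over input. Keeping duplicates can raise it for peaks built on few molecules. Read counts, summits and strands are not in the lists, so depth is unknown. The replicates are described as biological, and their number limits the precision.

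Coordinates were used 1-based with both ends counted, on GRCm38 (the mm10 build) and GENCODE M21. The representative transcript of a gene was that with the longest CDS among protein-coding transcripts with annotated start and stop codons. A peak was shared if it overlapped a peak of the other list by 1 bp. Distances were counted on the spliced mRNA. Scripts ran in Python 3.11.15 with numpy 2.4.6 and pandas 2.3.3, with samtools 1.23.1 for sequence. The overlap code was tested on simulated data and gave the same counts as bedtools 2.31.1. No significance test was made. All 10 genes are named by rule; of the related adhesion genes, those without a shared peak and the 4 with the highest lower fold enrichment are named, with 6 partner genes and the host genes. A further partner gene is not reported here. The genes and lists were chosen with earlier results of these data known. Alternatives changed the overlap, threshold, merging, transcript, stop window, peak summary and motif, and left out each replicate.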

Additional observations from a re-analysis of the deposited data

How the results depend on the processing

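Of 52 alternative values for 9 results, 37 stayed within the limits set for them and 15 did not, and the cause was not tested. These limits were unlike for counts and coverage, so the tally is no single measure of stability. A fall from 10 to 7 genes with a shared peak stayed within its limit. Coverage had to stay within 0.362 points, the SD of both single replicates. Requiring peak midpoints within 100 bp left 14 shared intervals, 6 genes with one at the stop codon (not Slitrk1, Slitrk3, Slitrk4 and Slitrk6), 28.5% of the long-exon coding bases covered, 43.8% of replicate 1 and 50% of replicate 2 peaks shared, and 32.7% of GGACT covered; 7 genes then kept a shared peak. Overlap of 50% of both peaks gave 58.5% of coding bases, 68.8% and 78.6% of peaks shared, and 9 genes at the stop codon (not Slitrk1). The coverage was 74.1% with fold enrichment of at least 2, 77.8% after merging peaks within 100 bp, and 42.9% over all exonic bases. The median of the 10 genes in replicate 1 fell from 5.71 to 3.71 when each gene's median peak replaced its strongest. Without either replicate the coverage was 83.0% to 83.5%, and the number of intervals 28 to 32. No paired analysis was possible because there is 1 group of peak lists and no test. With 2 lists and no counts, peak width, depth and expression cannot be separated.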

Other observations

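Peaks at a pair of places in these genes lay outside the representative exons. Lrrtm1 had a shared peak at chr6:77257347-77258066 in replicate 1 (5.19) and chr6:77257316-77257991 in replicate 2 (5.12), over the last exon of a transcript annotated for nonsense-mediated decay, and both values exceeded those of its coding peak. Slitrk3 had a replicate 1 peak of 4.37 at chr3:73057657-73057963 over an alternative first exon, without a partner in replicate 2.

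Of the 93 GGAC in the coding sequences of the 10 genes, 60.2% were read as a GAC codon for aspartate, against 57.7% over all protein-coding genes, and 16.1% followed a leucine codon as Leu-Asp, against 11.2%. In the 24 other leucine-rich repeat adhesion genes these shares were 70.2% and 23.5%.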
